A study of Mus musculus with 10 samples.

Results

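Krüppel-like factors were examined in sorted mouse embryonic stem (ES) cell states through 9 genes of the family, Klf2, Klf3, Klf4, Klf5, Klf6, Klf9, Klf10, Klf13 and Klf16. They were taken by symbol from a table of 32361 annotated rows, which holds 17 Klf genes with 1 row each, and all 9 reached 1 FPKM and were compared. The cells were of the established line E14Tg2a.4, and RNA was sequenced from 5 fractions with 2 libraries each. A double knock-in line, carrying a separate fluorescent reporter at Esrrb and at Tbx3 gave a series of 3 fractions: cells negative for both reporters (double-negative), cells positive for Esrrb alone (single-positive) and cells positive for both (double-positive). A different line, with a Zscan4c promoter fragment in a piggyBac reporter, gave a pair, Zscan4-negative and Zscan4-positive cells. Values along the series are given below in the order double-negative, single-positive, double-positive, and values of the Zscan4 pair with the negative fraction before the positive one. All fractions of a line carry the same reporters, and a promoter fragment need not follow the whole Zscan4c gene. Culture medium, treatments and the number of clones per line are not stated in the labels.

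The deposited table holds 1 value per gene and fraction in FPKM (fragments mapped to a gene, divided by its transcript length and by library size), so no value below has a replicate error, no difference has a test, and read depth is unknown. FPKM is scaled to transcript length, so levels can be set side by side between genes. In sorted bulk RNA a lower level can mean fewer cells with the transcript or less transcript per cell, and these cannot be told apart. Differences are those of log2(FPKM + 1), a difference of at least 2-fold on that scale is the size rule, and 13595 rows that reached 1 FPKM in some fraction form the background.

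Krüppel-like factors bind GC-rich and CACCC-type DNA through zinc fingers at their C-terminal end, while their remaining parts differ and recruit coactivators or corepressors. In mouse ES cells Klf2, Klf4 and Klf5 belong to the naive pluripotency network and partly replace each other, Klf4 is induced by leukemia inhibitory factor through STAT3, and Klf4 is also one of the classical reprogramming factors. Klf3 acts as a repressor through CtBP proteins, and Klf9, Klf10, Klf13 and Klf16 form a branch that can repress through SIN3A.

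The sorted genes followed the fractions. Along the series Esrrb measured 43.3, 177 and 243 FPKM and Tbx3 0.638, 1.75 and 12.6 FPKM, and Zscan4c measured 0.255 and 120 FPKM in the Zscan4 pair. The ES cell marker Pou5f1 was at 1987 to 2762 FPKM in all 5 fractions. Markers of other cell types were unequal. The 15 fibroblast genes examined summed to 2335 FPKM in double-negative cells and to 1747 FPKM in single-positive ones, against 205 to 264 FPKM in the other 3 fractions, and the 17 T-lineage genes to 617 and 440 against 28.1 to 41.7 FPKM. Col1a1 and Cd3g, defining genes of these lists, were at 477 and 153 FPKM in double-negative cells and at 6.32 and 2.35 FPKM in double-positive cells. Without Fn1, which ES cells can also express, the other 14 fibroblast genes summed to 2028 and 1437 FPKM, against 26.5 to 38.2 FPKM. Dcn and Lum, also fibroblast genes, were at or below 0.217 FPKM in every fraction. Of the T-lineage sum in double-negative cells, 223 FPKM came from Gzma and 153 FPKM from Cd3g. Lck, Cd3d and Cd3e were at 66.1, 31.6 and 25.9 FPKM there. Cd4, Cd5, Cd6, Cd8a and Cd8b1, also T-lineage genes, were at or below 1.87 FPKM in every fraction. The 8 endothelial genes summed to 44.7 to 70.1 FPKM, with Emcn listed at 0 in every fraction. Most of that sum was Pecam1 (17.2 to 33.5 FPKM) and Egfl7 (19.8 to 27.2 FPKM). Cdh5 and Kdr were at or below 0.094 and 0.918 FPKM. The 7 myeloid genes summed to 12.7 to 18.9 FPKM, most of it Cd68 (10.9 to 18.4 FPKM). Primitive endoderm genes summed to 33.9 FPKM in double-negative and 14.1 in double-positive cells, and trophectoderm genes to 28.5 and 61.7 FPKM. Among them Col4a1 (19.3 and 0.583), Dab2 (7.51 and 0.810), Gata3 (6.42 and 0.251) and Krt18 (10.2 and 2.87) were lower in double-positive cells. Lama1 (2.21 and 11.6) and Tfap2c (6.84 and 56.4) were higher there.

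The sequence that the family shares is shown for Klf2, Klf4 and Klf5, the members with the largest differences along the Esrrb and Tbx3 series. In the coding sequences of GENCODE M21 (GRCm38, the assembly of mm10) each of the 9 members held 3 zinc fingers of the C2H2 type in a stretch of 243 bases. That stretch stood 3 to 9 bases before the stop codon in Klf2, Klf3, Klf4, Klf5 and Klf6, and 57 to 129 bases before it in Klf9, Klf10, Klf13 and Klf16. Capitals mark the 12 codons for the zinc-binding cysteines and histidines.
Klf2: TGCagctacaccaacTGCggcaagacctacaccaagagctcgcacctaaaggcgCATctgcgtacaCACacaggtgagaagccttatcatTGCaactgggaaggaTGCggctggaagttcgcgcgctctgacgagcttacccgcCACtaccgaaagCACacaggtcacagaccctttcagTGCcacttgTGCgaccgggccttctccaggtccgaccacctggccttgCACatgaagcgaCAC
Klf4: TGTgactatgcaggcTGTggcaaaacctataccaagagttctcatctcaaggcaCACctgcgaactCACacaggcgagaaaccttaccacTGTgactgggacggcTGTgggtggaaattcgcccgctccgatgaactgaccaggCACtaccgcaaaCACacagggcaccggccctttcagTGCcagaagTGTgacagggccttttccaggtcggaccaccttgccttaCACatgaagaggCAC
Klf5: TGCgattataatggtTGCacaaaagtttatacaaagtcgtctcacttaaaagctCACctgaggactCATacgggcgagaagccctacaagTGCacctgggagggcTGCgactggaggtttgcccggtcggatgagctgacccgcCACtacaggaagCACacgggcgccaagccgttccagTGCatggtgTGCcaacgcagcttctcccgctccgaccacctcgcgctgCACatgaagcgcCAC
Klf2 and Klf4 were the most similar pair, with 78.2% identical bases in this stretch, and Klf13 and Klf16 followed with 75.3%. Over all 36 pairs identity ran from 57.2% to 78.2%. The longest identical run in any pair of whole coding sequences was 24 bases, TCGGATGAGCTGACCCGCCACTAC in Klf5 and Klf9, and the median longest run was 12 bases. Members are therefore not near-identical copies, and the read length that decides how reads are shared is not given in the sources used here.

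Klf2, whose product supports the naive state and is degraded after ERK signalling, lies on chromosome 8 (mm10, 72319062 to 72321654, plus strand, 3 exons). It was the most abundant member in every fraction. Its levels were 138, 262 and 395 FPKM along the series and 252 and 391 FPKM in the Zscan4 pair. The double-negative value stood alone at the bottom, the single-positive and Zscan4-negative values lay within 1.04-fold of each other, and the double-positive and Zscan4-positive values within 1.01-fold. Klf2 was above 96.1% of all compared rows in double-negative and above 99.0% in double-positive cells.

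Klf4, on chromosome 4 (mm10, 55527137 to 55532475, minus strand, 5 exons), had the widest range of the family, 6.41-fold from lowest to highest. It measured 14.5, 65.5 and 87.0 FPKM along the series and 62.3 and 93.1 FPKM in the Zscan4 pair. The double-negative fraction was again the lowest, 4.29-fold below the next fraction, while the other 4 lay within a range of 62.3 to 93.1 FPKM. In double-negative cells Klf4 was the least abundant of the 9 members and sat above 56.6% of compared rows. In the other 4 fractions it sat above 87.9% to 92.4% of them.

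Klf5, a factor with roles in the inner cell mass and in epithelia, lies on chromosome 14 (mm10, 99298691 to 99313409, plus strand, 4 exons). Its levels were 54.2, 92.4 and 129 FPKM along the series and 97.5 and 115 FPKM in the Zscan4 pair. All 3 series values lay apart, and the double-positive value was 1.12-fold above the Zscan4-positive one, a gap for which no replicate spread is known.

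**Figure D1:**
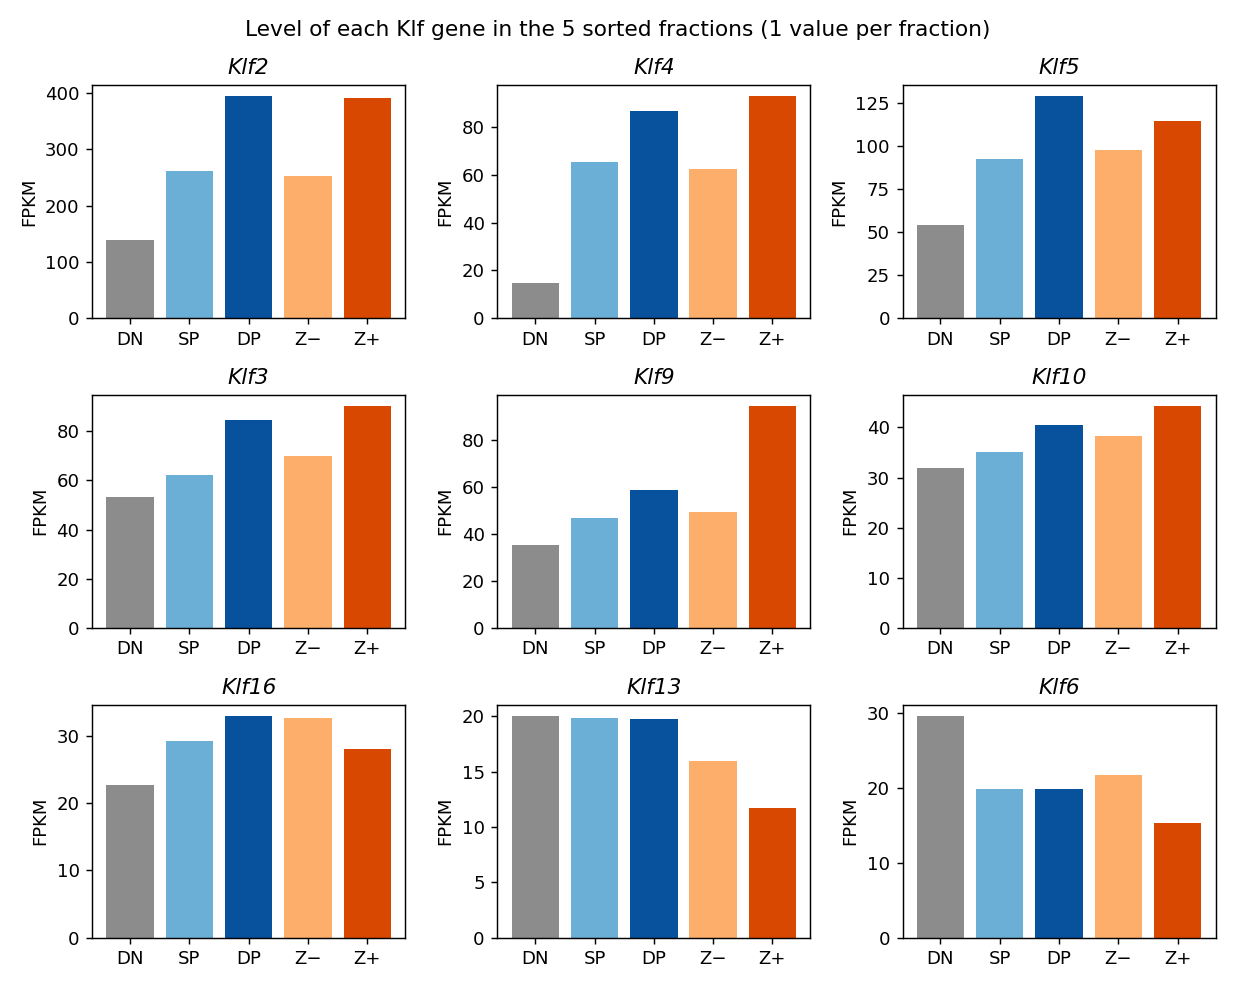
Bars give the FPKM of each of the 9 Klf genes (1 panel each, axes from 0) in double-negative (DN), single-positive (SP), double-positive (DP), Zscan4-negative (Z−) and Zscan4-positive (Z+) cells, 1 deposited value per fraction and no error. Klf2, Klf4 and Klf5 have their lowest bar in DN, at 138, 14.5 and 54.2 FPKM, while Klf13 and Klf6 have their lowest bar in Z+, at 11.7 and 15.3 FPKM.

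The Esrrb step set single-positive against double-negative cells. Klf4 was the only member past 2-fold, higher by 2.10 on the log2(FPKM + 1) scale, which ranked it 37th among the 13595 rows. The count of 1 of 9 members higher stands against 1.82% of all rows, and that of 0 of 9 lower against 1.43%. Klf2 differed by 0.92 and Klf5 by 0.76, short of the size rule but above 97.8% and 96.7% of all rows. The 9 members had a median difference of 0.35, against -0.02 over all rows, and 7 of them were higher by any amount, against 46.6% of all rows.

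The remaining members differed by smaller amounts in this step. Klf9, a hormone-responsive factor, was higher by 0.40, Klf16 by 0.35, Klf3 by 0.22 and Klf10 by 0.13. These differences lay above 91.2%, 89.4%, 81.2% and 72.4% of all rows. Klf13 differed by -0.01, within a range of -0.06 to 0.02 over the scalings and other settings tried, so it has no direction here. Klf6, an immediate early factor expressed in many tissues, was the only member clearly on the other side. It was at 19.8 FPKM in single-positive against 29.6 in double-negative cells. Its difference of -0.55 lay below all but 6.31% of compared rows.

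The Tbx3 step set double-positive against single-positive cells. No member reached 2-fold, against 0.346% of all rows that were higher and 6.94% that were lower by that rule. Differences of the same sign stood beside each other in Klf2 (0.59), Klf5 (0.48), Klf3 (0.44), Klf4 (0.40) and Klf9 (0.32), each above at least 92.6% of all rows. The median over the 9 members was 0.32, against 0.01 over all rows. Klf13 and Klf6 differed by -0.01 and -0.00, and both turned to 0.04 under median-ratio scaling. In this step 7 of 9 members were higher by any amount, against 50.8% of all rows. Fibroblast and T-lineage transcripts were lower in the same step. With columns scaled to equal FPKM totals, the Klf2 difference was 0.51. With the 484 rows high only in double-negative and single-positive cells left out of those totals, it was 0.50. Whether fibroblast and T-lineage transcripts have a part in small differences other than through these totals was not tested.

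Across both steps together, double-positive against double-negative cells, Klf4 differed by 2.50, Klf2 by 1.51 and Klf5 by 1.24. These 3 of 9 members were at least 2-fold higher, against 3.81% of all rows, and none was at least 2-fold lower, against 12.2%. By any amount 7 of 9 were higher, against 48.5% of rows. As linear ratios of FPKM, Klf4 was 5.99-fold, Klf2 2.86-fold and Klf5 2.38-fold higher. Klf9 (0.73), Klf3 (0.66), Klf16 (0.52) and Klf10 (0.33) lay below the size rule on the same side, and Klf6 (-0.56) on the other. The comparison shares its columns with both single steps, so its counts are no separate support for them. Both Klf2 and Klf6 are also expressed by lymphocytes or stromal cells. T-lineage and fibroblast transcripts were most abundant in double-negative cells, where Klf2 was lowest and Klf6 highest. None of the 9 members belongs to the 484 rows of that shared profile. Those rows were chosen by a single-positive level of 0.5 to 1 of the double-negative one. Their level in each other fraction was at most 0.1 of it. Their median single-positive to double-negative ratio, 0.701, was therefore bounded by the choice. That ratio was 0.670 for Klf6 and 1.90 for Klf2. Klf6 was at 19.8 FPKM in both single-positive and double-positive cells, where the profile rows summed to 5735 and 229 FPKM. What part such transcripts have in the Klf6 difference was not tested.

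**Figure D2:**
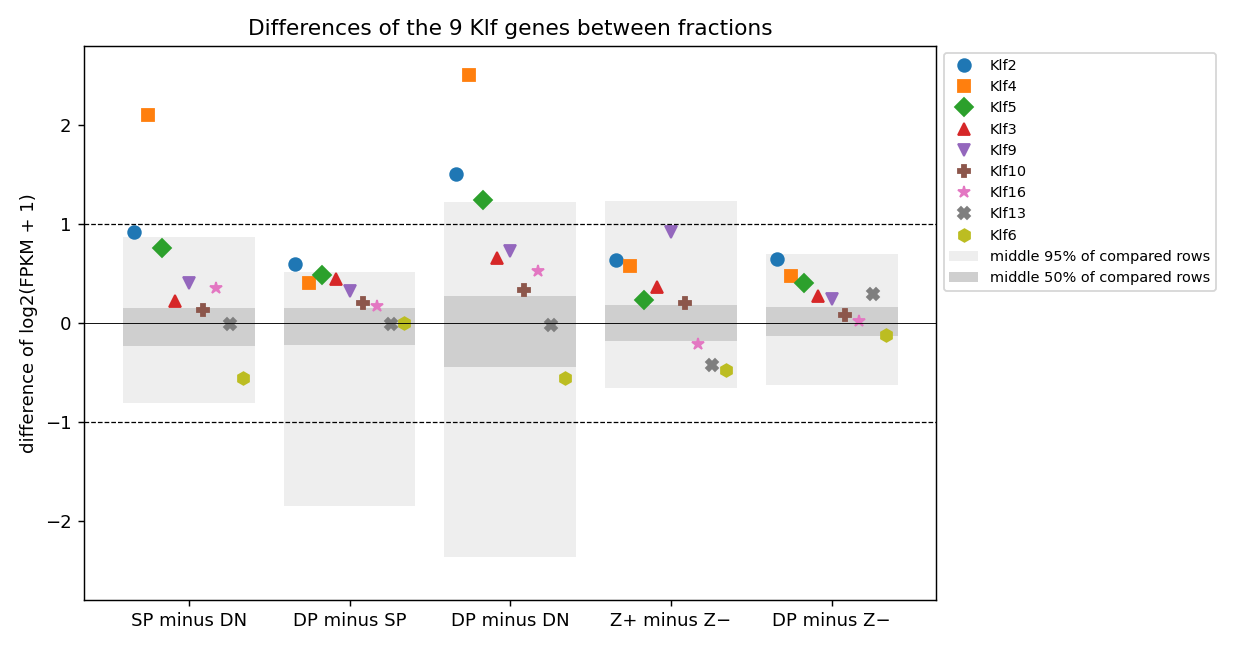
Points give the difference of log2(FPKM + 1) of the 9 Klf genes in 5 comparisons named under the axis (fractions abbreviated DN, SP, DP, Z− and Z+ for double-negative, single-positive, double-positive, Zscan4-negative and Zscan4-positive). Grey bars give the middle 95% and the middle 50% of the 13595 compared rows and dashed lines the 2-fold rule. Klf4 passes the line in SP minus DN (2.10) and, with Klf2 and Klf5, in DP minus DN.

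The Zscan4 sort set Zscan4-positive against Zscan4-negative cells, which asks what accompanies the rare state with transcripts of the 2-cell embryo. No member reached 2-fold, against 3.46% of all rows on the higher and 0.875% on the lower side. Klf9 was nearest to it, at 94.7 against 49.6 FPKM, a difference of 0.92 and a ratio of 1.91. The Zscan4-positive value of Klf9 was 1.61-fold above its next highest fraction, the double-positive one at 59.0 FPKM, and its lowest value was 35.2 FPKM in double-negative cells. Klf3, Klf4 and Klf10 also had their highest value in Zscan4-positive cells, with gaps of 1.07-fold, 1.07-fold and 1.10-fold to the next fraction.

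The naive network members were higher in Zscan4-positive cells by smaller amounts than Klf9, Klf2 by 0.63, Klf4 by 0.57 and Klf5 by 0.23. Klf3 differed by 0.36 and Klf10 by 0.20. Members on the other side were Klf6 (-0.48), at 15.3 against 21.7 FPKM, Klf13 (-0.42), at 11.7 against 16.0, and Klf16 (-0.21), at 28.1 against 32.6. Klf6 lay below all but 5.74% of compared rows and Klf13 below all but 7.90%. In all, 6 of 9 members were higher by any amount, against 48.2% of rows, and the median was 0.23 against -0.01. Fibroblast genes summed to 211 FPKM in the positive fraction against 205 in the negative one, most of it Fn1, and to 38.2 against 26.5 FPKM without Fn1. Of 13 compared, Thy1, also a T-cell gene, was past 2-fold, at 8.37 against 2.12 FPKM. T-lineage genes summed to 28.1 against 31.0 FPKM, with none past 2-fold. The part of these transcripts in the Klf differences of this sort was not tested.

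Across the reporter lines, double-positive cells were set beside Zscan4-negative cells. Line and sort differ together here, so they cannot be told apart. No member reached 2-fold, against 0.743% of rows higher and 0.816% lower, and 8 of 9 were higher by any amount, against 51.6% of rows. Klf2 had the largest difference, 0.64, followed by Klf4 (0.48) and Klf5 (0.40), while Klf16 differed by 0.02 and turned to -0.04 under equal totals. Zscan4-negative levels of Klf2, Klf4 and Klf5 lay within 1.06-fold of the single-positive levels, although the 2 fractions come from different lines and sorts.

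Klf3 lies on chromosome 5 (mm10, 64803523 to 64830129, plus strand, 6 exons), and 404 of its exon bases overlap the antisense transcript Gm20033. The library kit named in the labels is not described there as marking strand, so reads of such a pair may be counted together. Klf3 measured 53.3, 62.1 and 84.8 FPKM along the series and 69.9 and 90.3 FPKM in the Zscan4 pair. As in Klf4, Klf9 and Klf10, the double-negative value was the lowest and the Zscan4-positive value the highest. Klf10, a TGF-beta-inducible factor on chromosome 15 (mm10, 38291464 to 38300711, minus strand), had the narrowest range of the family, 1.39-fold, from 32.0 to 44.3 FPKM. Its neighbouring fractions differed by 1.06-fold to 1.10-fold, and without replicate values no order among them can be claimed.

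Klf16, on chromosome 10 (mm10, 80567121 to 80577296, minus strand), ranged 1.46-fold, with 22.7, 29.2 and 33.0 FPKM along the series and 32.6 and 28.1 FPKM in the Zscan4 pair. Klf13, a factor known from T lymphocytes on chromosome 7 (mm10, 63886351 to 63938915, minus strand), had values of 20.1, 19.9 and 19.7 FPKM along the series. It was lower in both fractions of the Zscan4 line, at 16.0 and 11.7 FPKM. Klf6, on chromosome 13 (mm10, 5861489 to 5870393, plus strand), had values of 29.6, 19.8 and 19.8 FPKM along the series and 21.7 and 15.3 FPKM in the Zscan4 pair. Klf9 lies on chromosome 19 (mm10, 23141226 to 23166911, plus strand, 2 exons), where a microRNA row, Mir1192, lies within its span. The values of that row ran from 0 to 37.2 FPKM. No exon bases of Klf9 overlapped exons of another gene in GENCODE M21, and whether reads were shared between these rows was not tested.

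The makeup of Klf transcripts followed from these levels. The 9 members summed to 400, 633 and 868 FPKM along the series and to 640 and 884 FPKM in the Zscan4 pair. The log2 ratio of the double-positive to the double-negative sum was 1.12, and under the 2 scalings to equal totals it was 1.00 and 0.97, short of 2-fold. Double-positive and Zscan4-positive cells thus had closely similar sums, and so had single-positive and Zscan4-negative cells. Klf2, Klf4 and Klf5 together made up 51.8% of the sum in double-negative and 64.4% to 70.4% in the other 4 fractions. The 6 others summed to 193 FPKM in double-negative and 257 in double-positive cells, and to 284 in Zscan4-positive cells. Klf2 alone was 34.6% of the sum in double-negative and 45.5% in double-positive cells. The ratio of Klf2 to Klf4 was 9.51 in double-negative cells and 4.00 to 4.54 in the other 4 fractions, whereas Klf2 to Klf5 ran from 2.55 to 3.41 over all 5. These shares within a column do not depend on how columns are scaled.

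**Figure D3:**
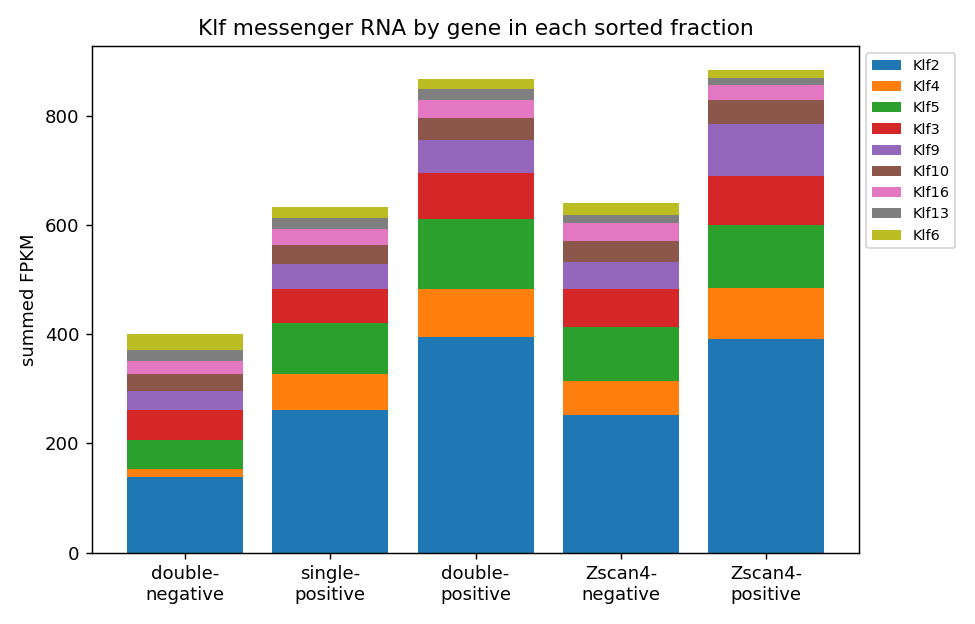
Stacked bars give the FPKM of the 9 Klf genes, summed within each sorted fraction (axis from 0, 1 deposited value per gene and fraction). The total runs from 400 FPKM in double-negative to 884 in Zscan4-positive cells, and Klf2 is the largest part of every bar.

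The other 8 Klf genes had lower levels, with 22.0 FPKM as the highest value of any of them, and their sums ran from 33.4 to 57.0 FPKM. Of these, 5 reached 1 FPKM and were compared. Klf8, another CtBP-recruiting repressor, had values of 7.39, 16.0 and 22.0 FPKM along the series and of 11.2 and 21.1 FPKM in the Zscan4 pair. Its difference was 1.02 in the Esrrb step, which dropped below 2-fold under both scalings to equal totals and with a pseudocount of 5 FPKM, and 1.46 between the ends of the series. Klf15, a metabolic regulator, was at 5.81, 9.27 and 12.6 FPKM along the series, a difference of 1.00 right at the size rule that also dropped below it under those settings. Klf7, a neuronal factor, had the opposite order, at 6.39, 3.22 and 2.60 FPKM, with a difference of -1.04 that lost the rule under median-ratio scaling and with that pseudocount, and was at 3.45 and 1.76 FPKM in the Zscan4 line. Klf11 (10.9 to 14.2 FPKM) and Klf12 (2.56 to 4.79 FPKM) were not past 2-fold in any of the 5 comparisons. Klf1, Klf14 and Klf17, factors of red cells, fat and the germ line, stayed at or below 0.494 FPKM in every fraction.

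The Sp genes, the closest relatives of the Klf family, had a smaller median difference than the 9 Klf members in each of the 5 comparisons. Of 9 Sp genes 7 were compared and none was past 2-fold in any of them. The share of all rows past that rule ran from 0.346% to 12.2% per direction, so this count says little. The nearest was Sp8, at 1.99, 0.703 and 0.689 FPKM along the series and 1.58 and 0.499 FPKM in the Zscan4 pair, and with a pseudocount of 0.1 FPKM 1 Sp gene was past 2-fold lower in 4 of the 5 comparisons. Sp1 was at 36.3 to 41.4 FPKM and Sp3 at 36.6 to 44.1 FPKM over all fractions, ranges of 1.14-fold and 1.20-fold. The median Sp difference between double-positive and double-negative cells was 0.19, against 0.66 for the 9 Klf members and -0.02 for all rows. Sp5, a WNT target, had its lowest value, 2.45 FPKM, in double-negative cells and its highest, 7.58 FPKM, in Zscan4-negative cells. As linear ratios of highest to lowest FPKM, Sp8 ranged 3.99-fold and Sp5 3.10-fold, more than any of the 9 members but Klf4. Both are low rows, whose differences the added 1 FPKM shrinks.

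**Figure D4:**
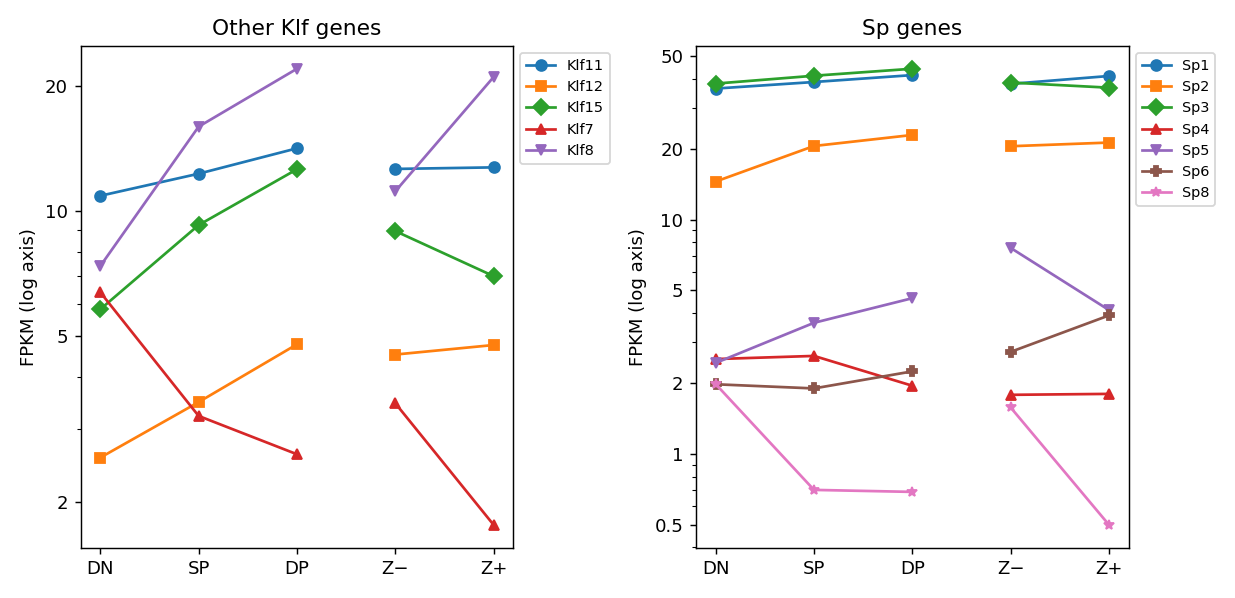
Points give the FPKM (log axis) of the compared Klf genes outside the 9 members (left) and of the compared Sp genes (right) in double-negative (DN), single-positive (SP), double-positive (DP), Zscan4-negative (Z−) and Zscan4-positive (Z+) cells, with lines joining fractions of 1 reporter line. Klf8 goes from 7.39 to 22.0 FPKM along the Esrrb and Tbx3 series and Klf7 from 6.39 to 2.60 FPKM, while Sp1 and Sp3 stay between 36.3 and 44.1 FPKM.

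The naive network genes, partners of Klf2, Klf4 and Klf5, had larger differences than most members. Of 12, 9 were at least 2-fold higher in the Esrrb step, against 1.82% of all rows, and 10 between the ends of the series, against 3.81%. The list holds Esrrb and Tbx3, on which the cells were sorted. Without them, a setting added after the values were seen, 8 of 10 were higher in each of these comparisons, with medians of 1.79 and 2.38. Tcl1 (2.49), Tfcp2l1 (2.32), Zfp42 (2.07) and Prdm14 (2.02) had the largest differences in the Esrrb step, close to the 2.10 of Klf4 and above the 0.92 of Klf2. In the Zscan4 sort Tbx3 (1.55) and Nanog (1.02) were at least 2-fold higher and Gbx2 (-1.49) lower, against 3.46% and 0.875% of all rows, and under equal totals 1 of the 2 higher genes dropped out. Of 9 LIF and STAT3 pathway genes none reached 2-fold in the Esrrb step, against 1.82% of all rows higher and 1.43% lower. That count says little in a list of this size. Their median was 0.21, against -0.02 over all rows, and Lifr (0.82) and Gbx2 (-0.78) were nearest to the rule. Stat3 itself measured 30.6 and then 33.0 FPKM over that step. The receptor gene Lifr measured 5.47, 10.4 and 11.8 FPKM along the series. The kinase genes Jak2 (-1.67) and Jak1 (-1.03) were the 2 of 9 at least 2-fold lower between the ends of the series, against 12.2% of all rows, and Jak2 (-1.19) was the 1 lower gene in the Tbx3 step, against 6.94%. Fibroblast genes (12 of 13 compared) and T-lineage genes (10 of 15) were lower by the same rule between those ends, with medians of -5.63 and -2.85, and their part in the Jak differences was not tested.

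None of 12 corepressor and coactivator genes and none of 9 genes for ubiquitin ligases and kinases that act on Klf proteins was past 2-fold in any comparison. The share of all rows past it ran from 0.346% to 12.2% per direction, so a count of 0 in lists of this size says little. The corepressor gene Ctbp1 measured 73.7 FPKM at the double-negative and 52.5 FPKM at the double-positive end, and Sin3a 44.7 and 58.8 FPKM. Immediate early genes, a class to which Klf2, Klf4, Klf6 and Klf10 can also belong, had a negative median difference between the ends of the series. Of 10 compared, 6 were at least 2-fold lower at the double-positive end of the series, against 12.2% of all rows, with a median of -1.21, among them Jun (-2.99), Fos (-2.04), Fosb (-1.91) and Zfp36 (-1.49). Jun measured 24.3, 13.3 and 2.19 FPKM along the series. The fibroblast and T-lineage genes named above were lower in the same comparison, and their part in the immediate early differences was not tested. None of the 10 was at least 2-fold different in the Zscan4 sort, against 3.46% of all rows higher and 0.875% lower. A count of 0 therefore says little here too. Btg2 (0.91) and Zfp36 (-0.79) were nearest to the rule in that sort.

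The genes with the most similar profile were found over the 5 fractions, by the root mean square distance of log2(FPKM + 1) centred on each gene's mean, among 9637 other protein-coding rows. For Klf4 they were Prdm14 (0.10), Zfp42 (0.10) and Shisa2 (0.12), and for Klf2 Bcas3 (0.05), Ckmt1 (0.06) and Stmn2 (0.06). For Klf5 they were Chmp4c (0.03), Sgol2a (0.05) and Dnajc21 (0.06), and for Klf9 Atg14 (0.05), Arl15 (0.07) and Porcn (0.07). The nearest member to Klf2 was Klf5, at rank 48, and the nearest to Klf4 was Klf2, at rank 102. With 5 points per profile such nearness is a description only. Nearest to Klf3, Klf10, Klf16, Klf13 and Klf6 were Kifc1, Atp5b, Aprt, Ttc23 and Lrrc61, at distances of 0.01 to 0.03.

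Promoters are shown for Klf2 and Klf4, which had the 2 largest differences along the Esrrb and Tbx3 series, and for Klf9, which had the largest in the Zscan4 sort. The sequences are the 250 bases before the RefSeq gene start (GRCm38.p6), a table in which 6 of the 9 members were found. They lie at chr8:72318812-72319061 on the plus strand for Klf2, at chr4:55532476-55532725 on the minus strand for Klf4 and at chr19:23140976-23141225 on the plus strand for Klf9. Capitals mark a match to any motif searched.
Klf2: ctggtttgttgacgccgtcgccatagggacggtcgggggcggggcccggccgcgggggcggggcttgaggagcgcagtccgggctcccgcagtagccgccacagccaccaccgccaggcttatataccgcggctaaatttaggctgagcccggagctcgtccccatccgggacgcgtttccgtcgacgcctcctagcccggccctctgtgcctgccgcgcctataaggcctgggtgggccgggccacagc
Klf4: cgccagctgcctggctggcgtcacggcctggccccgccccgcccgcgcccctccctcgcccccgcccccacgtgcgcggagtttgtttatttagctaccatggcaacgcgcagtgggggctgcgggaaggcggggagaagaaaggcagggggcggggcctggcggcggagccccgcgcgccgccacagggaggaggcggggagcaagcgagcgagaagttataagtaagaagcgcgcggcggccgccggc
Klf9: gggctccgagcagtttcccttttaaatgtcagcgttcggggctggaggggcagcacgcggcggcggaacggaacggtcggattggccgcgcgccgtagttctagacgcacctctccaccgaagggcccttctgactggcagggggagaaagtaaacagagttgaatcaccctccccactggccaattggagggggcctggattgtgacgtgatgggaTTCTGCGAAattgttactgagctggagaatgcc
Searched on both strands were TTCNNNGAA (STAT), AAGGTCA (ESRRB), AGGTGTGA (T-box), and GGGTGTGG and CACGCCC (KLF). No pair of matches overlapped in these windows. The 250 bases of Klf9 held 1 STAT match, TTCTGCGAA, at 33 to 25 bases before the start, a motif found in 7.02% of 32851 promoters. Those of Klf13 held 1 CACGCCC match, found in 7.55%. None of the 5 motifs was in the windows of Klf2, Klf3, Klf4 and Klf6, where AAGGTCA is found in 4.08%, AGGTGTGA in 1.12% and GGGTGTGG in 3.20% of all promoters. Only these exact letters were searched, so GC-rich sites of other letters, which the family can also bind, were not counted. A match or its absence says nothing about binding in these windows or elsewhere at the genes. The 6 member windows had 59.6% to 78.4% G and C bases, against a median of 52.4% over all promoters.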

How the data were processed

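Each of the 5 sorted fractions of E14Tg2a.4 ES cells had 2 RNA libraries, collected on different days. Per the labels' protocols, libraries were made with an NEBNext Ultra RNA kit. The submitters' processing notes name TopHat2 2.0.14 and Cuffdiff 2.2.1, besides bcl2fastq 1.8.4 and Cufflinks, and build mm10. The annotation is not given in these sources.

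Per the file headers the authors deposited FPKM, 1 value for each row in each fraction. It is titled as counts, but values are not whole. Both libraries of a fraction are merged, so no test could be run. Table starts count from 0 and are written from 1. Columns were compared as log2(FPKM + 1), over rows that reached 1 FPKM in some fraction, with a rule of 2-fold. Only the comparison of columns under the size rule was tested on simulated data, with changes planted in a single column. Passing rested on planted changes well past 2-fold and on unchanged rows. The gene lists, profile distances and sequence searches were not part of that test.

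The 9 members, the 17 gene lists and the size rule were chosen with earlier results of these data known. Named were all members, up to 4 genes per list past 2-fold with at least 5 FPKM, and the 3 rows nearest to each member in profile. Genes given outside that rule, such as Sp1, Stat3 or Ctbp1, were chosen after their values were seen. Python 3.11.15, pandas 2.3.3, numpy 2.4.6 and matplotlib 3.10.9 were used. Coding sequences came from GENCODE M21, promoters from RefSeq.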

Additional observations from a re-analysis of the deposited data

How the results depend on the processing

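No paired analysis was possible because each fraction's 2 libraries were merged into 1 deposited value, and for the same reason no replicate could be left out. The 9 members were compared under 8 alternatives in 5 comparisons. In all 360 recomputed differences, each member stayed on its side of the 2-fold rule. The sign turned in 6 of them, all in differences of small size: Klf13 in both steps and between the ends of the series and Klf6 in the Tbx3 step under median-ratio scaling, and Klf16 across the lines under both scalings to equal totals. Scaling to equal totals outside the shared profile moved the median of all rows by -0.13 between double-positive and double-negative cells, and the median of the members relative to it was 0.66, against 0.68 as reported.

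Counts over all rows moved most with the pseudocount, in the order higher and lower. With 0.1 FPKM they were 428 and 469 in the Esrrb step, 153 and 1460 in the Tbx3 step, 835 and 280 in the Zscan4 sort and 341 and 339 across the lines. With 5 FPKM they were 119 and 58, 29 and 304, 201 and 43, and 34 and 38 in the same comparisons, and 261 and 591 between the ends of the series. With a minimum of 5 FPKM in place of 1, 612 rows were lower in the Tbx3 step, 972 lower between the ends of the series and 303 higher in the Zscan4 sort. A larger pseudocount shrinks the differences of low rows, and a higher minimum leaves fewer rows to compare. Depth is unknown, so the precision of low values such as those of Klf7 cannot be given.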
